A study of Homo sapiens with 6 samples.

Results

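The miR-23/27/24 microRNAs (miRNAs) are made from paralogous gene clusters, miR-23a/27a/24-2 and miR-23b/27b/24-1, and the members described here are the mature products of both arms of their hairpins, chosen by name. They are listed as hsa-miR-23a-5p, hsa-miR-23a-3p, hsa-miR-23b-5p, hsa-miR-23b-3p, hsa-miR-27a-5p, hsa-miR-27a-3p, hsa-miR-27b-5p, hsa-miR-27b-3p, hsa-miR-24-2-5p and hsa-miR-24-3p, and the species prefix is left out from here on. They are 10 of the 2588 mature miRNAs listed in the count table, and all 10 were among the 800 with enough reads to be tested. The remaining mature product of these clusters, miR-24-1-5p, is listed with 0 counts in every library. The RNA came from Caco-2, an established human line from a colorectal adenocarcinoma, grown in serum-containing medium with no treatment named. Small RNA was sequenced from 3 input libraries and from 3 libraries immunoprecipitated with an antibody to 7-methylguanosine (m7G-RIP). In the study's protocol the RNA of both groups is decapped, which removes the m7G of caps, and heat-denatured, and an aliquot is kept as input before the antibody is added, so the comparison asks which miRNAs are carried over by the antibody relative to their level in the same kind of RNA. No library made with a control antibody was analysed here. Nothing in the labels says that the replicates came from separate cultures, so the p-values measure the spread between these libraries, which may be technical.

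Each miRNA hairpin is cut from a primary transcript by DROSHA and then by DICER, which leaves a short duplex of a 5p and a 3p strand. One strand is usually kept by Argonaute as the guide that finds target mRNAs through its seed, and the other is mostly degraded. In the miR-23/27/24 clusters the 3p strands are the well-known guides: miR-23 represses glutaminase and is itself repressed by MYC, miR-27 acts on lipid metabolism and adipocyte differentiation, and miR-24 restrains cell-cycle genes. 7-methylguanosine is a guanosine with a methyl group at N7, best known from mRNA caps and from tRNA, so the number of guanosines in a strand bears on how many positions could carry it.

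The mature sequences are shown because the comparisons that follow are between the arms of a hairpin and between the paralogs of an arm, which differ in sequence to unequal degrees. They are written 5′ to 3′ from RefSeq (GRCh38.p14), in lower case with the seed, bases 2 to 8, in capitals. The 3p arms are, by shared seed,
miR-23a-3p: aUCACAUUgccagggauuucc
miR-23b-3p: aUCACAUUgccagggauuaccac
miR-27a-3p: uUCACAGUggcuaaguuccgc
miR-27b-3p: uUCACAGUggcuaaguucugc
miR-24-3p: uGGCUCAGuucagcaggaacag
and the 5p arms are
miR-23a-5p: gGGGUUCCuggggaugggauuu
miR-23b-5p: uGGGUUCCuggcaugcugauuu
miR-27a-5p: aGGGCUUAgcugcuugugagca
miR-27b-5p: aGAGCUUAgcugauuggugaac
miR-24-2-5p: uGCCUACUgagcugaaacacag
The 3p paralogs share 20 of the 21 bases compared from base 1. The 3p arm of miR-23a differs from that of miR-23b by U19A (base of the a paralog, position from the 5′ end, base of the b paralog), and miR-23b-3p is 2 bases longer. The 3p arms of miR-27a and miR-27b differ by C19U. The 5p arms have diverged further, with 7 of 22 bases different between miR-23a-5p and miR-23b-5p, which keep the same seed, and 8 of 22 between miR-27a-5p and miR-27b-5p, whose seeds differ by G3A. No other tested miRNA with a RefSeq sequence shares a seed with any of the 10. A read of a 3p arm that ends before base 19 cannot be given to a or b by its sequence, so the counts of the 3p paralogs are uncertain to that extent.

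The 23a cluster lies at chr19:13836287-13836659 (GRCh38, minus strand), 373 bases in all, inside the exon of the long noncoding RNA gene MIR23AHG, its host transcript. Its order along the transcript is MIR23A (13836587 to 13836659), MIR27A (13836440 to 13836517) and MIR24-2 (13836287 to 13836359). The 23b cluster lies at chr9:95085208-95086088 on the plus strand and spans 881 bases of AOPEP, a gene for an aminopeptidase. MIR23B (95085208 to 95085304) and MIR27B (95085445 to 95085541) overlap no annotated exon of AOPEP, while MIR24-1 (95086021 to 95086088) overlaps an exon of its transcript AOPEP-213. The same mature miR-24-3p is encoded by MIR24-1 and MIR24-2.

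MIR24-1 differs from the other 5 hairpins in that another miRNA gene, MIR3074, is annotated on the opposite strand. miR-24-1-5p shares 19 positions with miR-3074-3p, and miR-24-3p on chromosome 9 shares 20 with miR-3074-5p. miR-3074-5p was at 0 in all 6 libraries, and miR-3074-3p had 157, 185 and 140 counts in the input and 35, 67 and 56 in m7G-RIP. Of the 83 listed miRNAs whose mature span lies opposite another mature miRNA, 75 (90.4%) were at 0 in all 6 libraries, against 29.5% of the other 2198 with a RefSeq position. The 0 of miR-24-1-5p was therefore not read as its abundance, and whether it comes from the counting was not tested. Whether miR-24-3p was counted at both of its loci is not stated in the sources used here: 96% of the 25 values above 0 of miRNAs with 4 RefSeq loci were multiples of 4. Of the 314 values above 0 of miRNAs with 2 loci, the class of miR-24-3p, 76.1% were even, against 47.1% for single-locus miRNAs, and 5 of the 6 counts of miR-24-3p were. The level of miR-24-3p beside other miRNAs is uncertain for this reason.

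Total counts ranged from 16466178 to 19628046 in the input and from 1654102 to 3105129 in m7G-RIP, and 3 counts corresponded to at most 0.262 and 1.11 CPM respectively. CPM stands for counts scaled to a common library size, here corrected by TMM, edgeR's factor for composition. Such a floor covers counting error only, and the reads carry no molecular identifiers. All libraries of a group differed by more than sampling noise (chi-square statistic over its degrees of freedom, at least 11.3). The intestinal miR-192-5p, miR-194-5p and miR-215-5p summed to between 70900 and 78780 CPM in the input, the 5 epithelial miR-200 family members to between 42880 and 43072 CPM and the 4 blood-cell markers, of which miR-223-3p was at 0, to at most 15.9 CPM. The neuronal marker miR-9-5p reached 3078 CPM in the input while miR-124-3p had at most 3 counts, and the 4 muscle and fibroblast markers summed to at most 926 CPM. miR-122-5p, the liver marker, was at 0 but lies opposite another miRNA. The part of other cell types in the values below was not tested.

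In the input the 3p arms were far more abundant than the 5p arms. The 5 3p arms together took 1.36% ± 0.0498 (SD, n = 3) of all counts and the 5 5p arms 0.0376% ± 0.00149 (SD, n = 3). miR-27b-3p was the most abundant, with 11098, 12134 and 12308 CPM in input replicates 1, 2 and 3, the 13th highest of the tested miRNAs. It was followed by miR-24-3p (3237 ± 157 CPM, SD, n = 3), miR-27a-3p (2623 ± 226), miR-23b-3p (1331 ± 124) and miR-23a-3p (888 ± 138). Among the 5p arms miR-27a-5p led with 289 ± 8.26 CPM, before miR-27b-5p (148 ± 7.01), miR-24-2-5p (86.4 ± 5.22), miR-23b-5p (22.5 ± 0.62) and miR-23a-5p (4.68 ± 0.744). The input libraries of neighbours in this order did not overlap anywhere, although each mature RNA ligates with its own efficiency, so these are levels of reads rather than of molecules.

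**Figure D1:**
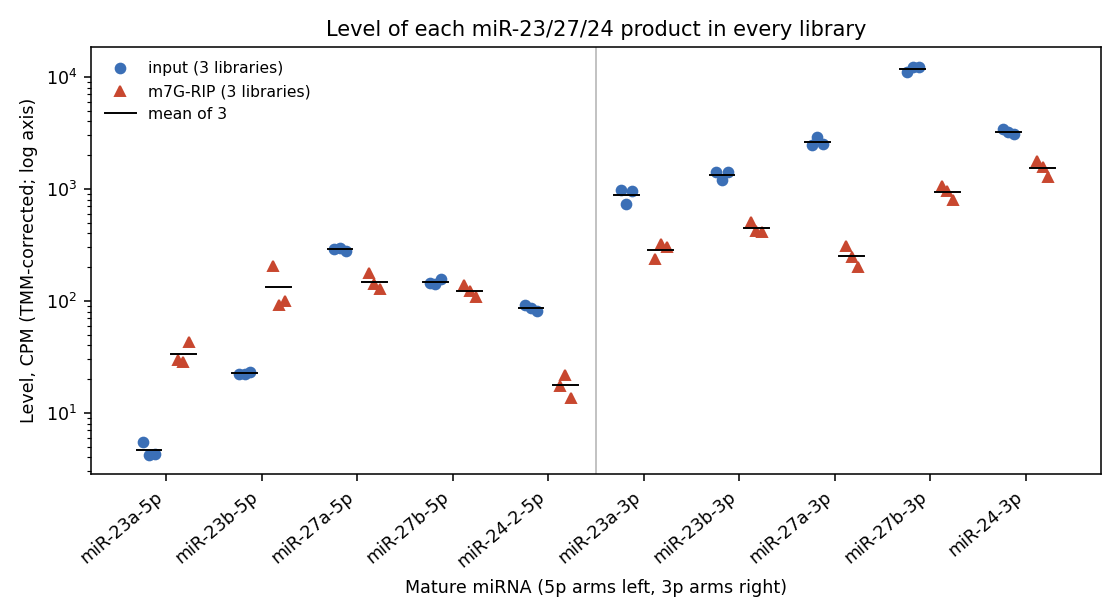
Level of the 10 miR-23/27/24 products in CPM on a log axis, with each input library as a circle, each m7G-RIP library as a triangle and the mean of 3 as a line. miR-23a-5p and miR-23b-5p are the products whose triangles all lie above their circles. The position of miR-24-3p, miR-27a-5p and miR-27b-5p against their input depends on the scaling of the libraries.

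In m7G-RIP the 3p arms summed to a smaller share of the counts and the 5p arms to a larger one. The 3p arms together took 0.504% ± 0.0142 (SD, n = 3) of all counts and the 5p arms 0.0659% ± 0.00876 (SD, n = 3). Neither range overlapped with that of the input. For the 3p arms it was 1.31% to 1.41% in input and 0.491% to 0.519% in m7G-RIP. For the 5p arms it was 0.036% to 0.0389% and 0.058% to 0.0754%. Much of the 3p sum was miR-27b-3p, at a mean of 0.809% of input counts and 0.136% of m7G-RIP counts. The share of miR-24-3p alone among the 3p arms did not fall (0.221% and 0.224%). That of miR-24-2-5p alone among the 5p arms did (0.0059% and 0.0026%). With edgeR's quasi-likelihood test over all 800 tested miRNAs, 2 members were enriched, 7 depleted and 1 not called at a Benjamini-Hochberg adjusted p-value under 0.05. Over all tested miRNAs 40.1% were enriched and 38.1% depleted, so the depleted share of the members was above the background and the enriched share below it. The median log2 enrichment of the 10 was -1.33, against 0.16 over all tested miRNAs. All 5 3p arms were depleted, while the 5p arms had 2 enriched, 2 depleted and 1 not called. Among all tested miRNAs whose names end in 5p the median was 0.40 (153 enriched and 127 depleted of 329), and among those ending in 3p it was -0.31 (94 and 134 of 314).

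The zero of this scale depends on the normalisation. Scaling by total counts raised the log2 enrichment of all tested miRNAs by a median of 1.09, upper-quartile factors raised it by 0.82 and DESeq2's size factors lowered it by 0.34. The members on either side of zero by more than this kept their sign, whereas miR-24-3p, miR-27a-5p and miR-27b-5p did not. Differences between members within a library, given further on, do not depend on the scaling.

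**Figure D2:**
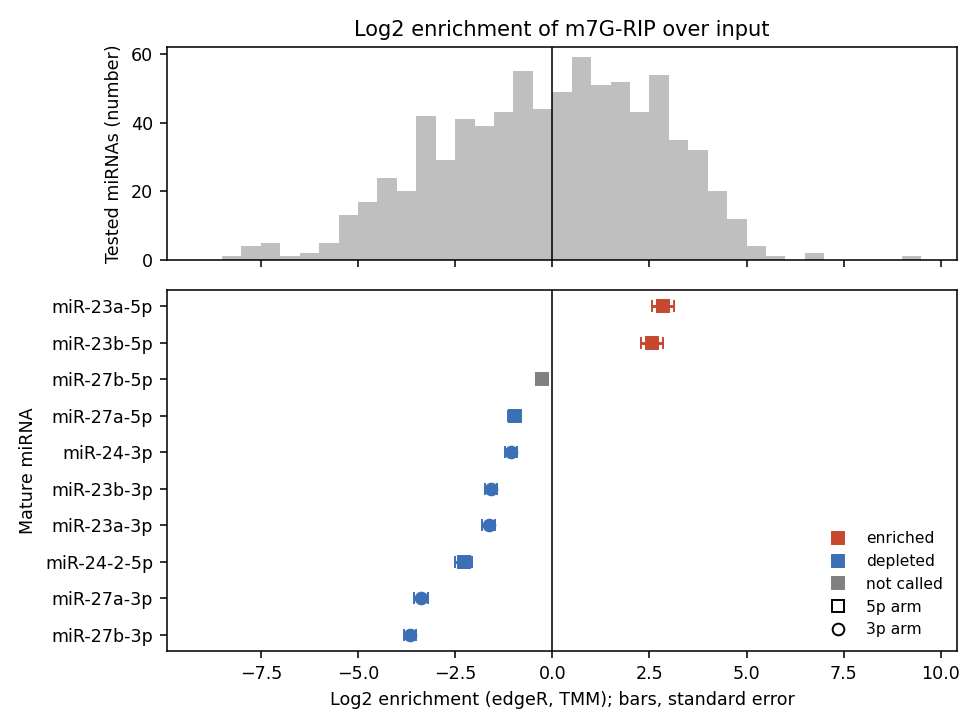
Log2 enrichment of m7G-RIP over input under TMM scaling, for all 800 tested miRNAs as a histogram (top) and for the 10 members with standard errors (bottom; squares, 5p; circles, 3p). Values run from -3.66 for miR-27b-3p to 2.84 for miR-23a-5p, with miR-24-3p and the miR-27 5p arms near enough to 0 that total counts scaling turns their sign.

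The miR-23 5p arms were the enriched members. miR-23a-5p, the strand opposite the miR-23a guide, had 65, 54 and 49 counts in the input and 123, 126 and 117 in m7G-RIP, although the m7G-RIP libraries were several-fold smaller. On the CPM scale it was at 5.54, 4.23 and 4.28 in the input and at 29.9, 28.4 and 43.1 in m7G-RIP. All 3 m7G-RIP libraries lay above all 3 input libraries, which held for 41.4% of tested miRNAs. Its log2 enrichment was 2.84 (SE 0.29, edgeR adjusted p = 9.91e-07), a 7.16-fold rise, higher than in 84.8% of the tested miRNAs.

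miR-23b-5p, its paralog on chromosome 9, had 262, 281 and 266 counts in the input and 844, 409 and 272 in m7G-RIP. This was 22.3, 22 and 23.2 CPM in the input and 205, 92.1 and 100.2 CPM in m7G-RIP. The groups did not overlap, but m7G-RIP replicate 1 stood well above the other two. The log2 enrichment was 2.56 (SE 0.28, edgeR adjusted p = 2.53e-06), a 5.89-fold rise, and it was 2.06 without m7G-RIP replicate 1 (edgeR adjusted p = 5.52e-08).

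The miR-27 5p arms lay near the middle of the tested miRNAs. miR-27a-5p went from 288, 298 and 281 CPM in the input to 176, 141 and 127 CPM in m7G-RIP, with no overlap. Its log2 enrichment was -0.96 (SE 0.16, edgeR adjusted p = 0.000124) under TMM, -0.14 with upper-quartile factors (adjusted p = 0.499) and 0.12 with total counts (adjusted p = 0.423), so its depletion holds relative to the TMM zero and not under those scalings. miR-27b-5p was at 145, 142.5 and 156 CPM in the input and 137, 123 and 108 CPM in m7G-RIP, groups that stayed apart by a few CPM. Its log2 enrichment of -0.26 (SE 0.16, edgeR adjusted p = 0.149) did not pass the test in the reported TMM fit. With TMM it was called depleted when at least 10 counts were required in every library (-0.40, edgeR adjusted p = 0.0232). The same held without a filter (-0.57, adjusted p = 0.0163) and without m7G-RIP replicate 1 (-0.38, adjusted p = 0.0409). It was also called depleted with DESeq2's size factors (-0.61, adjusted p = 0.00276) but enriched with total counts (0.83, adjusted p = 0.0004).

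The guide strands of miR-27 were the most depleted members. The level of miR-27b-3p fell from 11847 ± 654 to 938 ± 129 CPM (SD, n = 3 each), with 130180, 154889 and 141049 counts in the input and 4337, 4270 and 2167 in m7G-RIP. Its log2 enrichment was -3.66 (SE 0.16, edgeR adjusted p = 2.59e-10), 12.6-fold lower, and 10.4% of tested miRNAs had a lower value. miR-27a-3p fell from 2473, 2882 and 2512 CPM to 311, 247 and 202 CPM, with a log2 enrichment of -3.37 (SE 0.18, edgeR adjusted p = 1.87e-09). A lower value was found for 12.5% of tested miRNAs. No m7G-RIP library of either came near an input library, and total counts scaling left both depleted (-2.57 and -2.28).

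The guide strands of miR-23 were depleted less. miR-23a-3p went from 972, 729 and 964 CPM in the input to 235, 321 and 301 CPM in m7G-RIP, a log2 enrichment of -1.64 (SE 0.17, edgeR adjusted p = 1.58e-06). miR-23b-3p went from 1402, 1188 and 1402 CPM to 503, 418 and 411 CPM, a log2 enrichment of -1.58 (SE 0.15, edgeR adjusted p = 5.16e-07). Neither overlapped between the groups, and both stayed depleted with total counts (-0.53 and -0.49).

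The miR-24 hairpin gave the reverse order of arms. miR-24-3p, encoded in both clusters, went from 3398, 3228 and 3085 CPM in the input to 1791, 1563 and 1281 CPM in m7G-RIP. Its log2 enrichment was -1.07 (SE 0.15, edgeR adjusted p = 2.56e-05) under TMM. It was -0.24 with upper-quartile factors (adjusted p = 0.225) and 0.02 with total counts (adjusted p = 0.882), so its depletion did not hold under those scalings. The share of miR-24-3p was 0.221% ± 0.0158 of input counts and 0.224% ± 0.0144 of m7G-RIP counts (SD, n = 3). miR-24-2-5p, the strand opposite it on chromosome 19, had 1072, 1109 and 928 counts in the input and 72, 96 and 37 in m7G-RIP. Its level fell from 86.4 ± 5.22 to 17.6 ± 3.99 CPM (SD, n = 3) with a log2 enrichment of -2.28 (SE 0.22, edgeR adjusted p = 6.08e-07), and is the 5p arm with the lowest value. In all, 8 members had every m7G-RIP library below every input library in CPM, which held for 40.8% of tested miRNAs.

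Ordered by log2 enrichment, the members ran miR-23a-5p, miR-23b-5p, miR-27b-5p, miR-27a-5p, miR-24-3p, miR-23b-3p, miR-23a-3p, miR-24-2-5p, miR-27a-3p and miR-27b-3p. Neighbours were compared by their ratio within each library. The ratio overlapped between input and m7G-RIP for miR-23a-5p and miR-23b-5p, for miR-27a-5p and miR-24-3p and for miR-23b-3p and miR-23a-3p, whose order is thus not resolved. The other 6 neighbouring pairs did not overlap (exact two-sided permutation test, p = 0.1, the smallest that 3 against 3 libraries allow). The order was taken from these same libraries, so the ratios describe it and do not test it. Such separation was common, at 63.3% of the 49 pairs of a and b paralogs compared below.

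Because both arms of a hairpin were counted in the same libraries, their ratio is free of the scaling. The difference in log2 enrichment between the 5p and the 3p arm was tested with edgeR's quasi-likelihood method, with a term for each library, over the 215 arm pairs of which both arms were tested. In 4 of the 5 pairs of these clusters the 5p arm was the more enriched, which was called for 46% of all pairs, and in 1 pair the 3p arm was, called for 23.7% of all pairs. The 5 differences had a median of 3.40, against 0.81 over all pairs.

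For mir-23a there was 1 5p count for every 174, 171 and 223 3p counts in the input, and for every 7.85, 11.3 and 6.97 in m7G-RIP. The arms differed by 4.46 (SE 0.24, 95% confidence interval 3.88 to 5.04, edgeR adjusted p = 1.17e-05), more than in 91.6% of all pairs. For mir-23b there was 1 5p count for every 62.7, 53.9 and 60.3 3p counts in the input and for every 2.46, 4.53 and 4.1 in m7G-RIP. That difference was 4.05 (SE 0.26, interval 3.43 to 4.66, edgeR adjusted p = 1.77e-05), and 3.77 without m7G-RIP replicate 1. The rare strand of both miR-23 hairpins thus made up a far larger part of the hairpin's reads in every m7G-RIP library than in any input library.

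For mir-27b the 3p arm exceeded the 5p arm 76.7-, 85.1- and 79.1-fold in the input and 7.67-, 7.8- and 7.36-fold in m7G-RIP, a difference of 3.40 (SE 0.12, interval 3.11 to 3.68, edgeR adjusted p = 1.97e-06). For mir-27a it did so 8.58-, 9.69- and 8.94-fold in the input and 1.77-, 1.76- and 1.59-fold in m7G-RIP, a difference of 2.41 (SE 0.13, interval 2.11 to 2.71, edgeR adjusted p = 1.08e-05). In m7G-RIP the 2 arms of mir-27a came within a factor of 1.77 of each other, the closest of the 5 pairs. Under TMM the guides of both miR-27 hairpins were depleted and neither 5p arm was enriched, whereas for both miR-23 hairpins the guide was depleted and the 5p arm enriched, and with total counts or upper-quartile factors miR-27b-5p was enriched too.

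For mir-24-2 the ratio moved the opposite way. miR-24-3p exceeded miR-24-2-5p 37.2-, 37.1- and 38.1-fold in the input and 102-, 71.9- and 92.7-fold in m7G-RIP. The 5p arm was lower by a difference of -1.23 (SE 0.16, interval -1.62 to -0.84, edgeR adjusted p = 0.000523). miR-24-3p may hold reads from the other cluster too, so this is a comparison of mature miRNAs and not strictly of the arms of MIR24-2. With each pair's ratio compared over libraries, the groups stayed apart in all 5 pairs (exact two-sided permutation test, p = 0.1 for each, the smallest possible). Over all pairs the ratio was higher in every m7G-RIP library for 49.8% and lower for 25.6%.

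**Figure D3:**
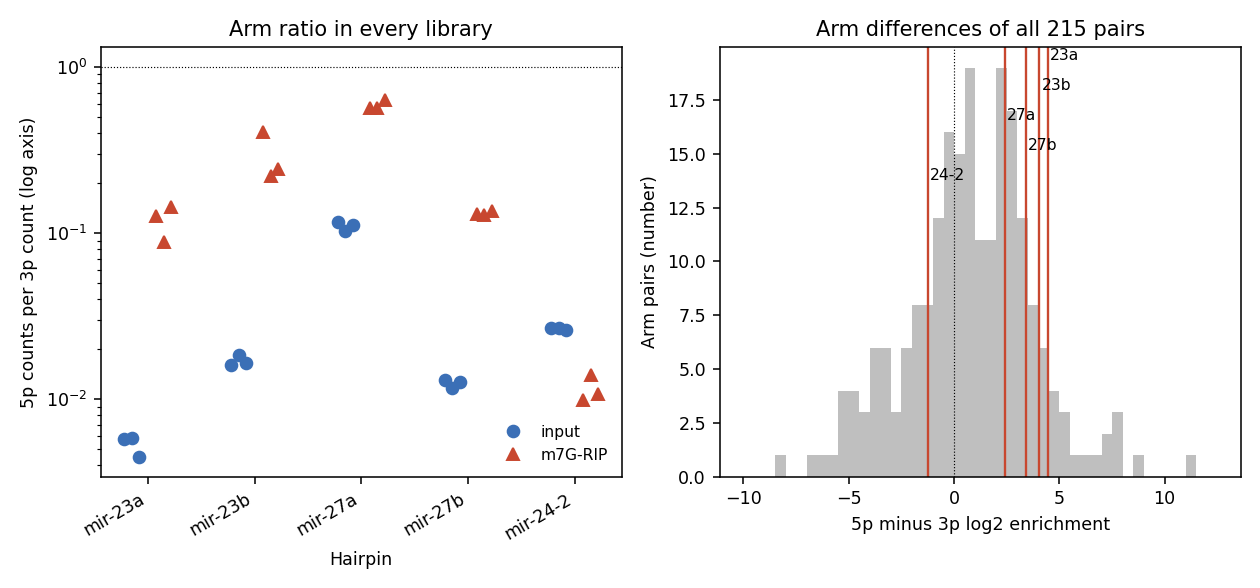
Left, 5p counts per 3p count (with 0.5 added to each count) in every input and m7G-RIP library on a log axis, by hairpin. Right, the 5p minus 3p log2 enrichment of all 215 arm pairs as a histogram, with the 5 pairs of these clusters as lines from -1.23 for mir-24-2 to 4.46 for mir-23a.

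By estimate the paralogs differed from each other by less than the arms did, although the interval for the miR-23 5p arms reached 1.57. The difference in log2 enrichment between the a and the b paralog was tested in the same way. This was done over the 49 pairs of tested miRNAs whose names differ only in these letters. Of the 4 pairs in these clusters 2 were called, 1 in each direction, against 61.2% of all 49 pairs. The ratio of a to b did not overlap between input and m7G-RIP for the same 2 pairs, both of miR-27, and for 63.3% of all pairs. The median size of the difference was 0.31 for the 4 pairs and 1.16 over all pairs. The 49 pairs were matched by name and not by likeness of sequence, whereas the 3p paralogs here share 20 of 21 bases. Counts of such near-identical paralogs may hold each other's reads. These medians therefore do not show that the paralogs of these clusters were more alike in enrichment than other paralogs.

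The clearest was the 5p arm of miR-27. miR-27a-5p exceeded miR-27b-5p 1.99-, 2.09- and 1.81-fold in the input and 1.28-, 1.14- and 1.18-fold in m7G-RIP. The a paralog was the less enriched by a difference of -0.71 (SE 0.08, 95% confidence interval -0.91 to -0.51, edgeR adjusted p = 0.00133). The 3p arms of miR-27 differed slightly in the other direction, by 0.28 (SE 0.09, interval 0.04 to 0.52, edgeR adjusted p = 0.048). miR-27b-3p exceeded miR-27a-3p 4.49-, 4.21- and 4.9-fold in the input and 3.38-, 3.89- and 3.94-fold in m7G-RIP, with no overlap. That call did not hold with the replicate number as a block (adjusted p = 0.0802), without a filter on low counts (adjusted p = 0.0693) or with any of the 6 libraries left out (adjusted p from 0.057 to 0.129).

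For miR-23 neither arm was called. The 3p paralogs differed by -0.05 (SE 0.22, interval -0.62 to 0.51, edgeR adjusted p = 0.965), and miR-23b-3p exceeded miR-23a-3p 1.44-, 1.63- and 1.45-fold in the input and 2.14-, 1.3- and 1.36-fold in m7G-RIP. Without m7G-RIP replicate 1 the sign of this difference turned (0.18, adjusted p = 0.116). The 5p paralogs differed by 0.35 (SE 0.47, interval -0.87 to 1.57, edgeR adjusted p = 0.625). miR-23b-5p exceeded miR-23a-5p 4.01-, 5.17- and 5.38-fold in the input and 6.84-, 3.24- and 2.32-fold in m7G-RIP, so the m7G-RIP libraries fell on both sides of the input. Without m7G-RIP replicate 1 the difference was 0.80 and was called (adjusted p = 0.0463). Differences of up to 1.57 on the log2 scale between the miR-23 5p arms are within the interval, so these values do not show that the paralogs were carried over alike.

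**Figure D4:**
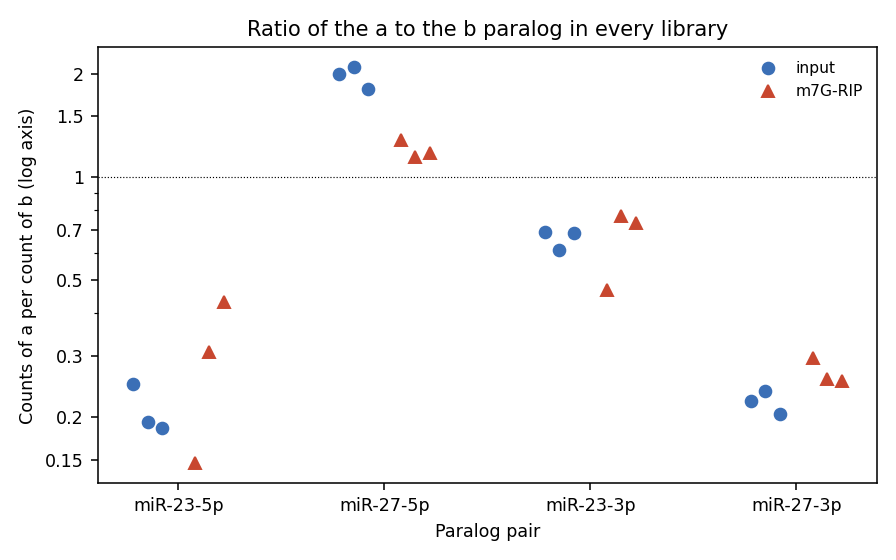
Counts of the a paralog per count of the b paralog (0.5 added to each) in every library, on a log axis. For miR-27-5p the input libraries lie between 1.81 and 2.09 and the m7G-RIP libraries between 1.14 and 1.28, while for miR-23-5p and miR-23-3p the groups overlap.

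The arms also differed in guanosine, which was not used to choose them. All 10 members are shown here with runs of at least 2 guanosines in capitals.
miR-23a-5p: GGGGuuccuGGGGauGGGauuu
miR-23b-5p: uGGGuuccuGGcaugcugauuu
miR-27a-5p: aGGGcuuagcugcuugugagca
miR-27b-5p: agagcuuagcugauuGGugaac
miR-24-2-5p: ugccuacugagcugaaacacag
miR-24-3p: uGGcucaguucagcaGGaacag
miR-23a-3p: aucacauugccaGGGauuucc
miR-23b-3p: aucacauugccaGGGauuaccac
miR-27a-3p: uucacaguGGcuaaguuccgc
miR-27b-3p: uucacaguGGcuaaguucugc
miR-23a-5p has 11 guanosines among 22 bases (50%), with 2 runs of 4 and 1 of 3. miR-27a-5p has 8, miR-23b-5p, miR-27b-5p and miR-24-3p have 7 each, the miR-27 3p arms and miR-24-2-5p have 5 and the miR-23 3p arms 4. In all 5 arm pairs the arm with more guanosines was the more enriched, mir-24-2 included, where it is the 3p arm. Among the 174 arm pairs with unequal numbers and RefSeq sequences this held for 128 (73.6%). Across the 714 tested miRNAs with a RefSeq sequence Spearman's rho between log2 enrichment and the number of guanosines was 0.49, and across 189 arm pairs rho between the differences of both was 0.56. These are descriptions over miRNAs measured in the same 6 libraries and not over independent replicates.

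The number of guanosines did not order the members fully. miR-23b-5p, miR-27b-5p and miR-24-3p have 7 each, with log2 enrichments of 2.56, -0.26 and -1.07. The other 74 tested miRNAs with 7 guanosines had a median of -0.92 and an interquartile range from -2.88 to 0.58, so that miR-23b-5p lay above 93.2% of them. miR-23a-5p, at 2.84, was close to the median of 3.05 of the 42 others with 11 guanosines. miR-27a-5p with its 8 guanosines lay below the median of its 68 counterparts (0.94), and miR-27a-3p and miR-27b-3p lay below the median of theirs (-1.41, 99 miRNAs with 5). The miR-23 3p arms, at -1.64 and -1.58, were close to the median of the 83 others with 4 guanosines (-1.73). miR-27a-5p and miR-27b-5p, whose a paralog has the additional guanosine, stood in the opposite order of enrichment.

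**Figure D5:**
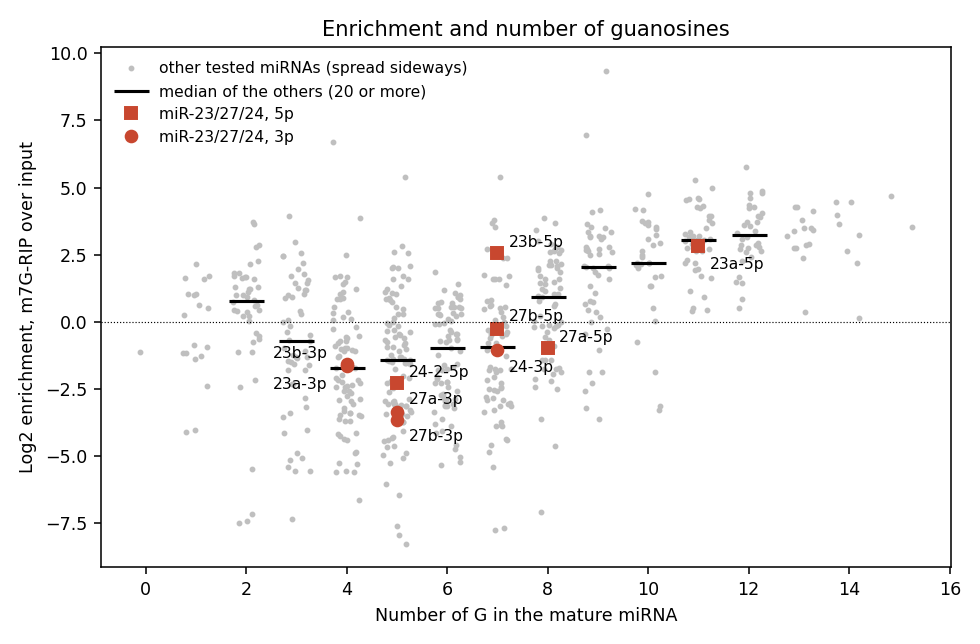
Log2 enrichment (TMM) against the number of guanosines in the mature miRNA for tested miRNAs with a RefSeq sequence; grey points are other miRNAs, black lines their medians where at least 20 share a number, and red marks the 10 members. The medians fall from 0.77 at 2 guanosines to -1.73 at 4 and rise to 3.23 at 12, and miR-23b-5p stands at 2.56 above the median of -0.92 for its number, while the sign of miR-24-3p and of the miR-27 5p arms depends on the scaling.

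For each member the tested miRNA nearest in log2 CPM over the 6 libraries was found among the non-members, as a description of pattern only. miR-24-2-5p lay closest to miR-302c-3p (Euclidean distance 0.29 log2 units, log2 enrichment -2.26) and miR-27b-5p to miR-18a-3p (0.39, log2 enrichment -0.01). miR-27a-3p was nearest to miR-181a-5p (0.71, -3.81), miR-27b-3p to miR-532-5p (1.04, -3.15), miR-24-3p to miR-10a-5p (0.76, -0.46) and miR-27a-5p to miR-365b-3p (0.70, -1.18). miR-23a-3p was nearest to miR-502-3p (0.76, -1.22) and miR-23b-3p to miR-205-5p (0.70, -1.28). The enriched miR-23a-5p and miR-23b-5p were nearest to miR-3917 (0.75, 2.43) and miR-1255a (1.12, 2.48), the last being the loosest match of the 10.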

How the data were processed

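The deposited values are raw counts of reads per mature miRNA in 6 small RNA libraries, which the authors made by trimming adaptors with Trimmomatic, mapping to GRCh38 and counting with featureCounts on miRBase22 annotation. The paper names STAR as the aligner and the submitters' processing notes name Bowtie2; with STAR, reads mapping to several places were kept at their best-scoring alignments. Tool versions, the strand setting and how featureCounts treated such reads are not given in the sources used here. Counts of a near-identical paralog or of an opposite-strand miRNA can therefore be shared or lost. Libraries were grouped by their labels.

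Here edgeR 4.0.16 in R 4.3.3 was used, with filterByExpr (minimum count 10, minimum total 15), TMM factors and the quasi-likelihood test of m7G-RIP against input on all 800 miRNAs kept, with Benjamini-Hochberg adjustment. Arm pairs and a/b paralog pairs were fitted with a row per pair and a column per library and arm or paralog. The model had a term per library and a term for the arm or paralog, and the arm-by-group or paralog-by-group term was tested. SEs are the absolute log2 value divided by the square root of F. Ratios had 0.5 added to each count. The fits were also run on simulated counts with known changes of both signs in a part of the rows, which does not test the choice of scaling. DESeq2 1.42.0, other scalings and filters, a replicate block, summed paralogs and left-out libraries were the alternatives. All 10 members are named, with miR-24-1-5p and the nearest non-member of each; miR-3074 was added after its values were seen. Members and lists were chosen with earlier results of these data known. Sequences and positions are from RefSeq (GRCh38.p14; 2281 of 2588 names matched) and annotation from GENCODE 44; Python 3.11.15 made the plots with matplotlib 3.10.9.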

Additional observations from a re-analysis of the deposited data

How the results depend on the processing

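Both miR-23 5p arms stayed enriched and 5 members (the miR-23 and miR-27 3p arms and miR-24-2-5p) stayed depleted under each of the 14 alternatives run for each. With total counts miR-24-3p was at 0.019, miR-27a-5p at 0.12 and miR-27b-5p at 0.83, all with the sign turned, and with upper-quartile factors miR-27b-5p turned to 0.56; those scalings raise all miRNAs. miR-27b-5p, not called as reported, was called depleted under 6 of its 14 alternatives, summed paralogs among them. The enriched members numbered 2 or 3 and the depleted 5 to 8. Over all tested miRNAs enriched calls made up 51.3% of calls with TMM, 69.1% with total counts, 64.8% with upper-quartile factors and 43.1% without a filter, and depleted miRNAs numbered 305, 198, 227 and 423; with at least 10 counts in every library, 182 were enriched and 175 depleted.

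The 5 arm differences kept their calls under all 10 alternatives. Of the paralog pairs, the number with the a paralog higher was 1 as reported, 0 without a filter and 0 with the replicate block (miR-27-3p difference 0.28, adjusted p = 0.0802), and from 0 to 1 with a library left out, where the 1 without m7G-RIP replicate 1 was miR-23-5p in place of miR-27-3p. The miR-23-3p difference ran from -0.19 to 0.18 with a library left out, turning its sign without m7G-RIP replicate 1. The cause was not tested. The replicate block changed no other call among the members; same-numbered input and m7G-RIP libraries had deviations that correlated by -0.03, -0.04 and 0.07, which does not pair them, and the labels do not say whether they came from one RNA sample; 1 of 3 input libraries correlated best with its own number. The lowest counts behind a member were 49 for miR-23a-5p, in the input, and 37 for miR-24-2-5p, in m7G-RIP.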
